A study of Mus musculus with 4 samples.

Results

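Meiotic recombination genes gave MILI-bound small RNAs in the testis at 14 days post partum, and they did so very unequally. The 8 genes described here are Prdm9, Mei4, Spo11, Dmc1, Tex15, Msh4, Msh5 and Mlh3, of 21951 protein-coding genes searched. Their members are the listed sequences that match a transcript of 1 of these genes exactly, sense or antisense, and no transcript of any other gene. This gave 1969 sequences of the 4906138 in the list, 1958 of them sense and 11 antisense. All 1958 sense sequences lay on the chromosome and strand of their gene, and 0 sequences of these genes were set aside for matching a second gene.

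The study recovered RNAs bound to MILI (Piwil2), a PIWI protein of male germ cells, from testes of C57BL/6 mice aged 14 days post partum. It had 2 libraries from Tdrd9+/- mice, which carry 1 functional allele of the helicase gene Tdrd9, and 2 libraries from Tdrd9-/- mice, which carry none. The deposited list pools the 4 libraries and holds neither read counts nor library names, so the depth per library is unknown, the genotypes were not compared and no replicate error can be given. Each sequence counts once however often it was read, and the intervals below are exact 95% intervals that cover counting error over distinct sequences or ends only. How many animals made up a library is not given in the sources used here.

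PIWI proteins carry piRNAs, small RNAs that guide the silencing of transposons in germ cells, and before and during early meiosis many piRNAs come from ordinary messenger RNAs as well as from transposons. Primary piRNAs usually begin with U. In meiotic prophase, PRDM9 marks the sites of recombination, SPO11 cuts both DNA strands there with the help of accessory proteins such as MEI4, and the recombinase DMC1 lets the broken end search the homologous chromosome. TEX15 is needed for recombinases to load onto the breaks and is also known as an effector of piRNA-directed DNA methylation. The MSH4-MSH5 heterodimer stabilises the joined intermediates, and MLH3 belongs to an endonuclease that turns them into crossovers.

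The sequences below show what was found at each gene. For each one, the 5′ end with the most sequences is given (the first along the gene where several tie), as the longest sequence of up to 30 nt that starts there, written with T for U as in the list. Capitals mark base 1, where primary piRNAs carry U, and base 10, where piRNAs made by slicing carry A.
Prdm9: TgaggattcTgatgaagagtggacaccta
Mei4: TcaaatgagCaaagaaacgaacctgcagaa
Spo11: TccaagggaCataaaaggggagccgtg
Dmc1: TtagaattcTggaccggacgggaaagcc
Tex15: TgtggaataTggacgcagaagccagtgct
Msh4: TgttgcatgActgtacagcaggcgctctt
Msh5: GgagttctcTgacgacctgcatcacatt
Mlh3: TggatatatAgcaagaccttgactcaaaa

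Of these 8 sequences, those of 7 genes begin with U, and the Msh5 sequence begins with G. Those of Msh4 and Mlh3 have A at base 10. The Prdm9 sequence (chr17:15699388-15699416, mm9, minus strand) lies in the coding part of exon 3, and 5 sequences of 25 to 29 nt start there. The Mei4 sequence (chr9:81820794-81820823, plus strand) lies in the coding part of exon 3, with 4 sequences of 27 to 30 nt. The Spo11 sequence (chr2:172803319-172803345, plus strand) lies in exon 1 of a transcript annotated as retaining an intron, and it is 1 of 7 Spo11 ends with 2 sequences. The Dmc1 sequence (chr15:79435444-79435471, minus strand) lies in the 5′ UTR in exon 1, 1 of 3 Dmc1 ends with 4 sequences.

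The Tex15 sequence (chr8:34650146-34650174, plus strand) is coding in transcripts that hold exons upstream of the longest one, and it is 1 of 5 Tex15 ends with 6 sequences, here of 22 to 29 nt. The Msh4 sequence (chr3:153567197-153567225, minus strand) lies inside intron 1 of the reference transcript, in an exon that a single other Msh4 transcript uses as 5′ UTR, and 5 sequences start there. The Msh5 sequence (chr17:35170556-35170583, minus strand) lies in the coding part of exon 12, with 3 sequences. The Mlh3 sequence (chr12:86575744-86575772, minus strand) lies in the 3′ UTR of the longer Mlh3 transcripts, with 6 sequences of 23 to 29 nt. At the same 5′ end the sequences differ only in where they stop.

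Tex15 had by far the most sequences, and Spo11 and Mei4 had the fewest. Prdm9, the histone methyltransferase that selects the sites, had 197 sense sequences at 143 distinct 5′ ends. Mei4 had 17 sequences at 12 ends and Spo11 28 at 21 ends. Dmc1 had 122 sequences at 87 ends. Tex15 had 1196 sequences at 704 ends, 61.1% of all sense sequences of the 8 genes. Msh4 had 82 sequences at 58 ends and its partner Msh5 43 at 36 ends. Mlh3 had 273 sequences at 178 ends. All 8 genes reached 10 sense sequences, as did 56.3% of all protein-coding genes, and 4 of the 8 (Tex15, Mlh3, Prdm9 and Dmc1) reached 100, as did 24.9% of all protein-coding genes.

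Transcript length accounts for part of a count, so the genes were set in order by density, which is the number of distinct 5′ ends divided by the kb of the gene's longest transcript. Tex15 stood first at 83.8 ends per kb (77.7–90.2), rank 579 of 21951 genes. Prdm9 followed at 41.3 (34.8–48.7), Dmc1 at 39.2 (31.4–48.4) and Mlh3 at 32.6 (27.97–37.7), and the intervals of these neighbours overlap. Msh4 had 17.4 ends per kb (13.2–22.5) and Msh5 12.5 (8.74–17.3), whose intervals also overlap. Spo11 had 5.80 (3.59–8.87) and Mei4 4.49 (2.32–7.85), neither of which is set apart from the other or from the median of all protein-coding genes, 5.74. The intervals of Tex15 and of Mlh3 do not reach those of the next gene below. The median of the 8 genes was 25.01 ends per kb. The level of the messenger RNAs was not measured here, so a gene with few ends may be weakly expressed or weakly used as a source, which cannot be told apart.

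**Figure D1:**
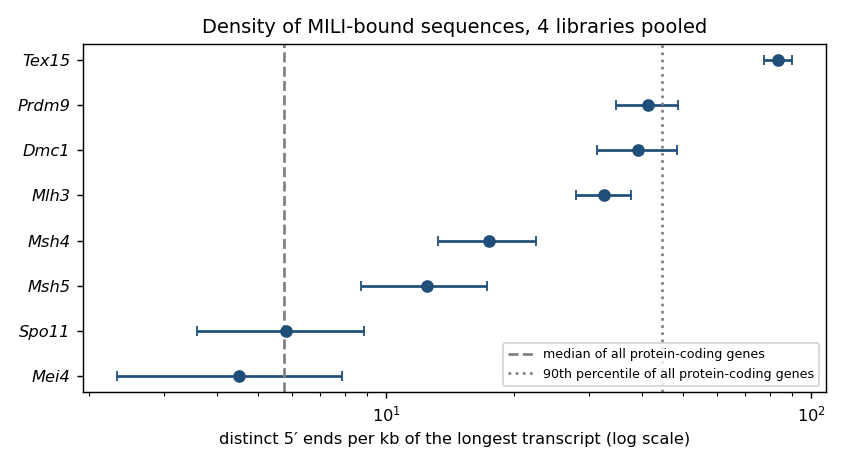
Density of distinct 5′ ends, in ends per kb of longest transcript (log axis), for each gene, as points with exact Poisson 95% intervals; the lines mark the median (5.74) and the 90th percentile (44.6) of all 21951 protein-coding genes. Tex15 lies above the 90th percentile, Spo11 and Mei4 lie at the median, and the other 5 genes lie between the lines.

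The choice of transcript matters most for Spo11. Its longest transcript retains introns (3619 nt), and on the coding transcript of 1709 nt Spo11 had 16 ends, 9.36 per kb. Msh4 moved the other way, from 17.4 to 13.2 per kb, although its longest transcript (3325 nt) also has the longest coding sequence. The main density counts ends on any transcript of the gene, and 14 of the 58 Msh4 ends lie on other transcripts only. With such ends left out and the length unchanged, Tex15 had 77.8 per kb, Prdm9 39.9 and Msh5 10.7. In what follows the reference transcript of a gene is the one with the longest coding sequence.

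In each gene the ends lay mainly in the coding sequence. Tex15 had all 654 ends on its reference transcript in the coding sequence, which makes up 99.4% of that transcript. The coding sequence of Dmc1 had 60.6 ends per kb (46.5–77.7) and its 3′ UTR 16.7 (9.75–26.8), although the 3′ UTR makes up 45.8% of its transcript. The coding sequence of Prdm9 had 47.6 per kb (39.5–56.8) and its 3′ UTR 19.02 (11.1–30.4). For both genes the intervals of the regions do not overlap. Mei4 had 10 ends in 1170 nt of coding sequence and 2 in 1238 nt of 3′ UTR. Spo11 had 16 ends in 1191 nt of coding sequence and 0 in 473 nt of 3′ UTR, which allows up to 7.80 per kb.

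Msh4 had 42 of 44 ends in the coding sequence and Msh5 31 of 31, but their 3′ UTRs are short, at 294 and 136 nt. In Mlh3 the coding sequence had 31.6 ends per kb and the 3′ UTR 28.9, and this order turned on its longest transcript, with 31.4 and 34.5. On the reference transcripts the 3′ UTR was less dense than the coding sequence in 7 of the 7 genes with at least 10 ends and 100 nt of each region, and so it was in 60.7% of 11004 protein-coding genes. Pooled over the 8 genes, 3.90% of ends (2.85–5.21%) lay in the 3′ UTR, on 14.8% of the nucleotides. On the longest transcripts, without Spo11 whose longest one is noncoding, the share was 6.59%, and Mlh3 then has 1102 nt of 3′ UTR in place of 242. Without Tex15 it was 9.30% on the reference transcripts (6.84–12.3%), on 20.5% of the nucleotides. In the other protein-coding genes the 3′ UTR held 48.3% of ends on 40.3% of the nucleotides.

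Among the 5′ UTRs of the reference transcripts, that of Dmc1 held the most ends. It had 8 ends carrying 20 sequences in 180 nt, or 44.4 ends per kb (19.2–87.6), and 2 of the other 5′ UTRs held 1 end each (Msh4 and Mlh3). Those of Spo11, Mei4, Msh5 and Prdm9 held 0, and the reference transcript of Tex15 has no 5′ UTR. The intervals of Msh4 (up to 36.2 per kb), Mlh3 (44.6), Spo11 (81.98) and Prdm9 (168) overlap that of Dmc1. Those of Mei4 (up to 14.1) and Msh5 (14.9) do not. The 5′ UTRs of other transcripts were not counted. Msh4 had 14 ends carrying 25 sequences off its reference transcript. Its fullest end, in the 5′ UTR of another transcript, is 1 of them.

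**Figure D2:**
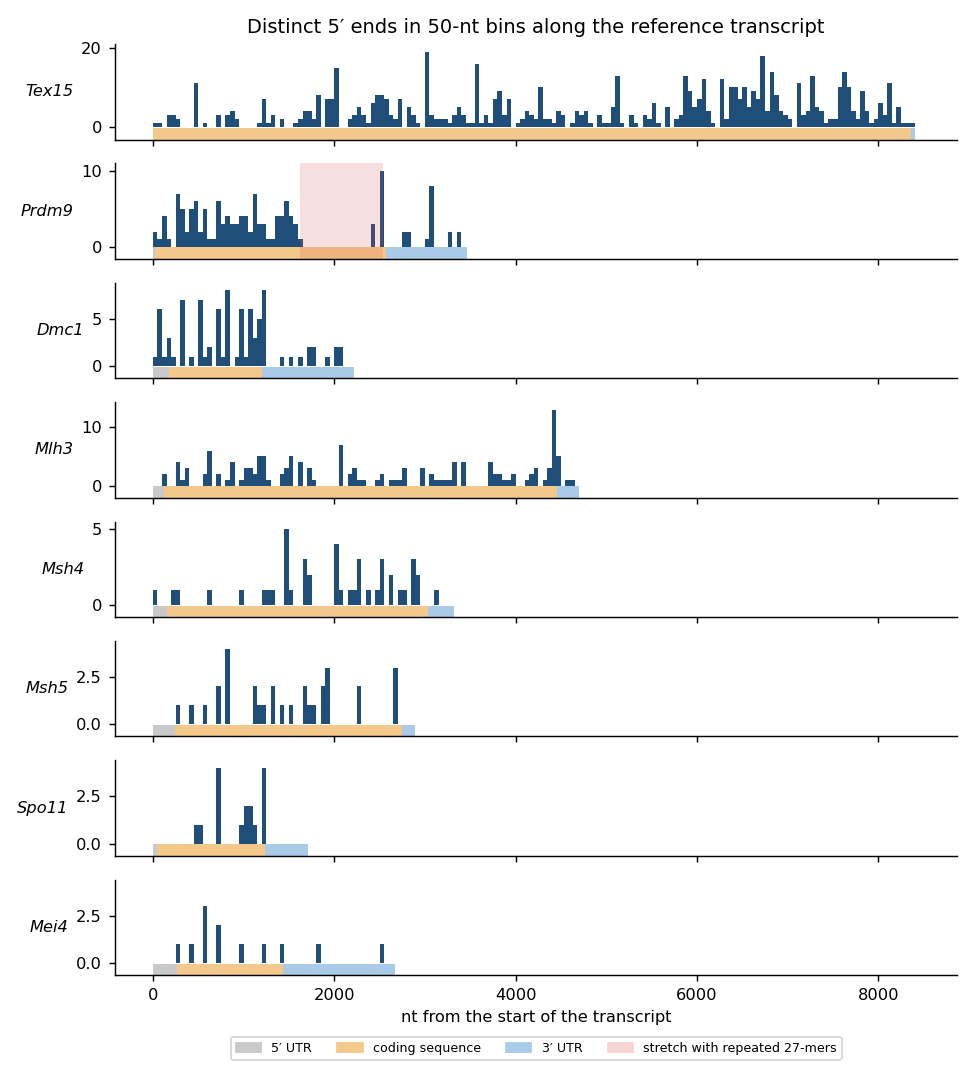
Distinct 5′ ends in bins of 50 nt along the reference transcript of each gene, from its start, with 5′ UTR, coding sequence and 3′ UTR marked below and the stretch of repeated 27-mers of Prdm9 shaded. The ends run along the whole of Tex15, are sparser in the 3′ UTR than in the coding sequence of Dmc1 (16.7 against 60.6 per kb), and leave Prdm9 without coverage over 789 nt.

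The ends of Tex15 covered most of its messenger RNA, whereas those of Mei4 and Spo11 were scattered. Sequences of Tex15 covered 64.9% of its 8405 nt, with a longest gap of 213 nt. Its large exon of 7035 nt (chr8:34681016-34688050) held 522 ends, 74.2 per kb, and the exon of 1235 nt (chr8:34691984-34693218) held 128, 104 per kb. Another 88 Tex15 sequences came from exons absent from this transcript. Coverage was 44.4% in Dmc1, 41.4% in Prdm9 and 39.5% in Mlh3. It was 22.8% in Msh4, 18.3% in Msh5, 16.4% in Spo11 and 10.7% in Mei4. Spo11 had 0 ends in the first 4 exons of its reference transcript. Another 5 Spo11 ends with 7 sequences lay off that transcript, among them the end shown above, in exon 1 of another transcript.

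Within Mlh3 the densest stretch ran across the end of the coding sequence, which lies at nt 4457. The densest 100 nt, from nt 4370 of the transcript, held 21 ends. The last exon (chr12:86576330-86576679) had 65.7 ends per kb, against 29.8 in the exon of 3323 nt that holds most of the coding sequence. That long exon still held 68.3% of the ends on the reference transcript, and the last exon 15.9%. In Dmc1 the short exons 6, 10 and 12 were the densest, with 132, 122 and 98.4 ends per kb from 7, 9 and 6 ends. In Mei4 the densest 100 nt held 3 ends. Exon junctions are a blind spot of the list, because each sequence has 1 unbroken genome position. Over 95 junctions, 2 sequences (both Msh5) reached past an exon, and each did so by 1 base.

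Prdm9 showed a gap where its coding sequence repeats. The end of PRDM9 is an array of zinc fingers that binds DNA, encoded by near-identical repeats in the last exon (chr17:15680043-15682324). On the reference transcript, 775 starts of 27 nt between nt 1621 and 2533 had a 27-mer found at least 1 more time in the same transcript, with up to 11 copies. At these starts 0 ends were listed. Between nt 1621 and 2533 there were 7 ends in all, and none from nt 1638 to 2426. Since the list gives every sequence 1 position, RNAs of repeated stretches could be missing from it, and whether the array gave MILI-bound RNAs was not tested. Without the 775 starts the density of Prdm9 was 51.4 ends per kb, against 39.9 with them on the same transcript. The other 7 genes had 0 repeated 27-mers.

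Sequences of all 8 genes began with U far more often than their transcripts would give by base content. On the reference transcripts 62.02% of ends (59.1–64.9%) began with U, while U stood at 26.2% of the positions where a sequence could start with 25 nt left in the exon. By gene, Tex15 had 60.6% (56.7–64.3%) against 27.3%, Prdm9 63.8% (55.2–71.8%) against 22.8% and Mlh3 65.5% (57.2–73.2%) against 25.3%. Msh4 had 75.0% (59.7–86.8%) against 25.4% and Msh5 70.97% (51.96–85.8%) against 22.99%. Dmc1 had the lowest share, 49.4% (38.5–60.4%) against 27.8%. Spo11 had 12 of 16 ends and Mei4 10 of 12. In each gene the interval lay above the U content of the transcript.

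**Figure D3:**
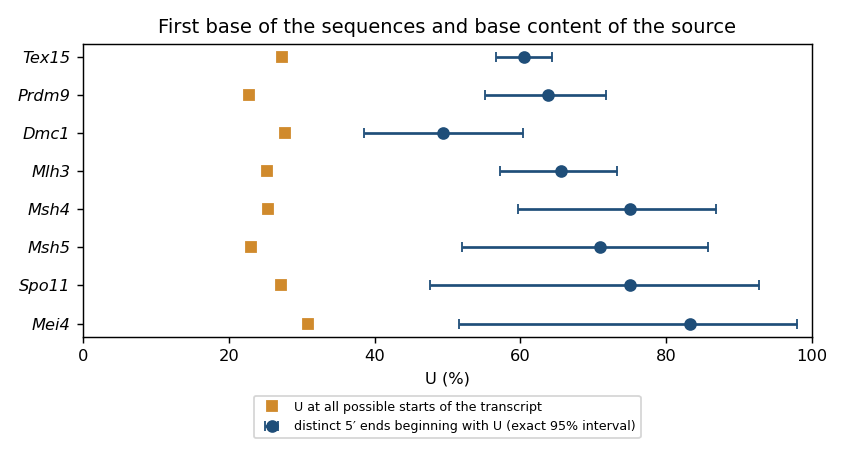
Share of distinct 5′ ends that begin with U (points, exact 95% intervals) and share of U at all possible starts of the same transcript (squares), by gene. Every point lies to the right of its square, from 49.4% against 27.8% in Dmc1 to 83.3% against 30.9% in Mei4.

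The U share rose with the number of sequences that start at an end. Among the 816 ends of the 8 genes with a single sequence 55.3% (51.8–58.7%) began with U. The share was 67.2% (60.9–73.2%) of 238 ends with 2 sequences, 86.9% (79.02–92.7%) of 107 ends with 3 and 96.2% (89.2–99.2%) of 78 ends with 4 or more. The same ends of the 7 genes without Tex15 gave 58.1%, 79.3%, 94.7% and 88.9%, the last from 18 ends. In the other protein-coding genes the shares were 56.3%, 71.1%, 80.1% and 88.4%. The rise was thus seen in those genes too. Counted over sequences, 70.6% (68.6–72.6%) of the 1958 began with U, and 69.3% in the other protein-coding genes.

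A at base 10, the mark of piRNAs made by slicing of a target, lay below or above the A content of bases 11 to 20 depending on the gene. Pooled, it stood at 35.3% (33.2–37.5%), against 36.96% on average at bases 11 to 20, and without Tex15 the order turned, to 35.6% (32.2–39.1%) against 32.7%. The other protein-coding genes had 30.7% at base 10 and 30.1% at bases 11 to 20. Tex15, whose transcript is 35.4% A, had 35.2% (32.5–37.98%) at base 10 and 39.7% at bases 11 to 20. Dmc1 had 27.05% (19.4–35.8%) and 29.6%, and Mei4 17.6% (3.80–43.4%) and 48.2%. Base 10 was the higher in the other 5 genes. Prdm9 had 38.6% (31.7–45.8%) and 35.2%, and Mlh3 36.996% (31.3–43.02%) and 33.5%. Msh4 had 34.1% (24.03–45.4%) and 28.05%. Msh5 had 41.9% (27.01–57.9%) and 30.2%, and Spo11 42.9% (24.5–62.8%) and 28.2%. In each of these 5 the interval holds the value of bases 11 to 20, and so it does in Dmc1. In Tex15 and Mei4 the interval over sequences lies below that value. The 1196 Tex15 sequences share 704 ends and the 17 of Mei4 share 12, so these intervals are too narrow. Whether base 10 lies below over distinct ends was not tested. The base after the 3′ end was U for 29.01% (26.6–31.5%) of 1358 distinct 3′ ends, next to 26.2% U over the possible starts.

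Lengths were close to each other. The mean was 27.5 nt (SD 1.31 over sequences), against 27.1 nt in the other protein-coding genes, and 27 nt was the most frequent length in each of the 8 genes. Mei4 had the highest mean, 28.1 nt (SD 1.34) over 17 sequences, and Msh5 the lowest, 26.9 nt (SD 1.23). Tex15 had a mean of 27.6 nt (SD 1.28). RNAs of about 28 to 30 nt had been cut from a gel, and the part of that choice in the lengths was not tested.

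Antisense sequences were found for Msh5 and Spo11 alone among the 8. They numbered 8 for Msh5 and 3 for Spo11, 0.559% (0.279–0.997%) of the 1969 sequences, against 4.74% in the other protein-coding genes. Without Tex15, which had 0 antisense sequences, the share was 1.42% (0.712–2.53%). They shared 7 ends, and 10 of the 11 began with U. The Msh5 sequences lay in its last part, and the Spo11 ones at 3 separate places. Examples follow, with bases 1 and 10 in capitals.
Msh5, 3′ UTR: TgcaaactgAgaactctgcagtaagg
Msh5, coding sequence: TggcaaagcTggtagaagaagacaagg
Spo11, exon of a longer transcript: TaggacgtcAtgcatgccaggcaagt

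The first lies at chr17:35165591-35165616 and the second at chr17:35166680-35166706, both on the plus strand. The third lies at chr2:172814654-172814679 on the minus strand. Slicing by a piRNA leaves partners on opposite strands whose 5′ ends overlap by 10 nt. Of the antisense ends, 0 overlapped a sense end of their gene by 10 nt, and 0 overlapped one by any length from 1 to 20 nt.

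Sequences were also placed in introns, and for Mei4 and Spo11 these outnumbered the sense sequences of the exons. Only the listed position of each was used. Whether these sequences also occur elsewhere in the genome was not tested, so their source is not settled. Counted were same-strand sequences between the first and last sense sequence of a gene that match none of its transcripts. Mei4 had 66 of these beside 17 sense sequences, and Spo11 44 beside 28. Msh4 had 56 beside 82, Dmc1 44 beside 122 and Msh5 18 beside 43. Prdm9 had 13 beside 197, Tex15 12 beside 1196 and Mlh3 3 beside 273. These genes differ in how much intron they have. Per kb, Spo11 had 3.51 ends (2.51–4.78) outside exons and 5.36 in its annotated exons, and Mei4 0.452 (0.345–0.582) and 2.91. Tex15 had 0.203 (0.105–0.354) against 73.2.

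The sequences outside exons were not spread evenly over the introns that could be placed, which are those with listed ends in both flanking exons. In Spo11 these were introns 11 and 12, and in Mei4 intron 2 alone. Intron 1 of Msh4 (chr3:153564553-153568635) held 73 same-strand sequences at 50 ends, 12.2 per kb, of which 24 match another annotated Msh4 transcript. The Msh4 reference transcript itself had 13.2 per kb. Intron 11 of Spo11 (chr2:172815502-172817546) held 27 sequences at 25 ends, also 12.2 per kb. Intron 2 of Mei4 (chr9:81783975-81820704), which is 36730 nt long, held 39 sequences at 35 ends, 0.953 per kb. Of the 256 sequences outside exons in the 8 genes, 91.4% (87.3–94.5%) began with U, against the 70.6% of the sense sequences. The U content of the introns was not measured, so its part in this difference was not tested.

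**Figure D4:**
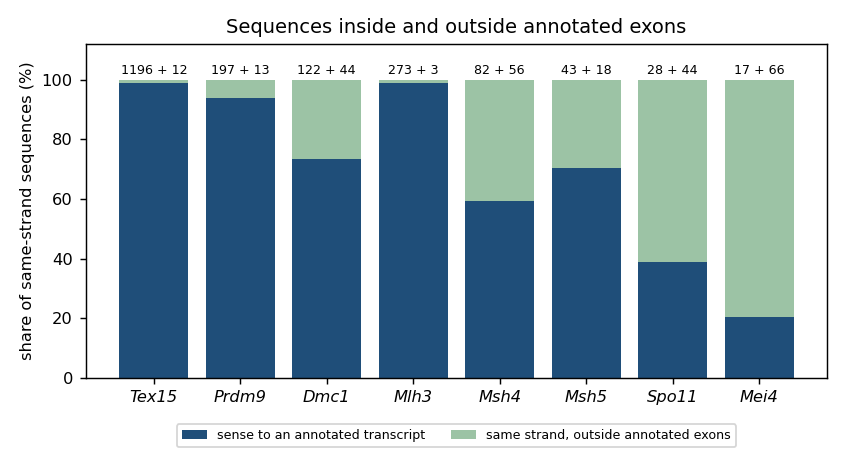
Share of same-strand sequences that match a transcript of the gene (dark) and that lie outside its annotated exons (light), as percent of both, with their numbers above each bar. Sequences outside exons make up 79.5% in Mei4 and 61.1% in Spo11, and under 2% in Tex15 and Mlh3.

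Other genes of the same pathway also ranged widely. In a wider list of 40 recombination genes the median density was 27.01 ends per kb, from 5.49 to 86.04, and 38 of 40 had 10 or more sequences (56.3% of all protein-coding genes did). The fullest were Mre11a, a nuclease that trims broken DNA ends, at 86.04 per kb with 831 sequences, the exonuclease gene Exo1 at 72.5 with 991 and Psmc3ip (HOP2), a partner of DMC1, at 71.3 with 149. The lowest were Spata22, needed with MEIOB for repair, at 5.49 with 7 sequences, Mnd1, the partner of HOP2, at 6.86 with 6, and the end resection gene Rbbp8 (CtIP) at 12.2 with 82. Psmc3ip and Mnd1, whose proteins form 1 complex, stand at opposite ends of this order.

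Relatives of Msh4, Msh5 and Mlh3 act in mismatch repair in dividing cells too. Of these, Msh6 had 73.6 ends per kb, Pms2 22.7, Pms1 21.6 and Msh3 13.6. Msh4 and Msh5, at 17.4 and 12.5, lie near the lower of these values, and Mlh3, at 32.6, lies between Pms2 and Msh6. For 13 genes of the chromosome axis and synaptonemal complex the median density was 45.7 ends per kb, from 16.9 to 144, against 25.01 for the 8 recombination genes, and the difference was not tested. Of all protein-coding genes, 56.3% reached 10 sense sequences. Of the germ cell markers 6 of 6 did so and of the spermatid markers 1 of 5. Of the Sertoli cell markers 1 of 5 did so, and of the Leydig cell markers 1 of 5 (Star, with 247 sense sequences).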

How the data were processed

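Small RNAs bound to MILI were sequenced from testes of 2 Tdrd9+/- and 2 Tdrd9-/- libraries. The authors deposited 1 list of distinct sequences with chromosome, start, end and strand, and its values are genome positions, per the file headers. Positions are on mm9 (the submitters' processing notes name this build), while aligner and read filters are not given in the sources used. No counts by library were analysed here, so the planned edgeR comparison of the genotypes could not be made.

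Each sequence was searched, whole and without mismatch, in both orientations of the 141767 GENCODE M21 transcripts. On simulated data this search recovered 500 of 500 sense and 500 of 500 antisense sequences, and 0 of 500 altered ones. From that annotation (GRCm38) only sequences, exon lengths and coding limits were used, and mm9 positions come from the list, exons being placed by the sequences in them. Gene lists used older symbols where needed, through RefSeq's gene table, and all 40 genes of the wider list were matched. Genes named were the 8 members, the 3 fullest and 3 emptiest of the wider list by ends per kb, mismatch repair relatives (some are not reported here), and the fullest end of each member. The members and lists were chosen with earlier results of these data known. Intervals are exact Clopper-Pearson (shares) or Poisson (densities) 95% intervals. Introns and flanks were described after seeing the data. Software was numba 0.67.0, scipy 1.17.1, pandas 2.3.3 and matplotlib 3.10.9 under Python 3.11.15.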

Additional observations from a re-analysis of the deposited data

How the results depend on the processing

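No paired analysis was possible because the list names no libraries, and for the same reason the planned fits with a replicate block, without each library, with DESeq2 and without a filter were not run. Counts of sense sequences stayed within 1.5 times for all 8 genes when sequences of 24 to 31 nt alone were counted or when matches to other genes were allowed. With a minimum of 100 sequences 4 genes passed. On the transcript with the longest coding sequence the density of Spo11 was 9.36 ends per kb and that of Msh4 13.2, outside the counting intervals of the main values. Counting sequences in place of ends gave 142 per kb for Tex15, 54.98 for Dmc1, 24.7 for Msh4, 49.97 for Mlh3 and 56.9 for Prdm9. The share with a 5′ U was 62.9% over ends in place of sequences. The 3′ UTR share was 6.59% on the longest transcripts, which leaves out Spo11 since its longest transcript has no coding sequence, and 9.30% without Tex15. Depth limits Mei4 and Spo11 most, with 12 and 21 ends.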

Other observations

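Stretches of 2 kb on each side of the genes were counted too, and those named here were chosen after their values were seen. Upstream of the first Dmc1 sequence, 19 sequences at 13 ends lay on the strand opposite to Dmc1 (chr15:79435662-79436816, mm9), 18 of them began with U, and none matched an annotated transcript. On the strand of Dmc1 itself there were 0 in this stretch. Upstream of Spo11, 27 sequences at 19 ends lay on the strand of Spo11 (chr2:172802307-172803203), 22 of them with a 5′ U, and none matched an annotated transcript. Upstream of Msh4, 36 sequences lay on the strand of Msh4 (chr3:153570314-153571071), and all 36 match another annotated gene. For Tex15 the same stretches held 2 sequences in all, both on the opposite strand.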
